A study of Mus musculus with 16 samples.

Results

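Vitamin A uptake and retinoid metabolism were followed through 7 genes, Bco1, Isx, Rbp2, Retsat, Rdh7, Dhrs3 and Aldh1a1, out of 49585 genes in the count table. The genes were chosen by name, with their values in these libraries in view. Their levels are therefore described, and whether a gene passed the threshold of the fit over all genes is given as part of that description. No p-values are given for them. All 7 had enough counts to be among the 12559 genes tested.

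RNA was sequenced from 16 cultures of mouse small intestinal organoids, which are epithelial crypts grown in Matrigel without other tissue. The organoids came from Atg16l1fl/fl mice without villin-cre (fl/fl) or from villin-cre+ Atg16l1fl/fl mice (ΔIEC), in which Cre under the villin promoter deletes the autophagy gene Atg16l1 from intestinal epithelial cells. All 4 groups carried the floxed Atg16l1 alleles. Each genotype had 4 untreated cultures and 4 cultures given recombinant murine IL-22, a cytokine that acts on epithelial cells, at 10 ng/ml for 24 h. Numbers in the labels were read here as organoid lines, which gives 2 lines per genotype and 2 untreated and 2 treated cultures per line. The study's methods give n = 4 and name no lines for these libraries, and whether a line is 1 mouse is not stated. By this reading, cultures 1 and 2 of a group are of the first line and cultures 3 and 4 of the other. An n of 4 then stands for 2 lines, and p-values measure the spread between these cultures. All results on lines rest on this reading. By the study's methods, its mice were 8 to 12 weeks old and on a C57BL/6 background, with littermates as controls.

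Reads counted on genes ranged from 2135000 to 5574860 per culture, with a median of 3499276. Atg16l1 was at 31.6 to 51.8 CPM (counts scaled to library size by edgeR's TMM method) in fl/fl and at 0.289 to 5.96 CPM in ΔIEC cultures. Summed epithelial markers (7 genes, among them Epcam and Vil1) were at 6743 to 12860 CPM. Summed immune markers (7 genes) were at 1.42 to 8.10 CPM, with Cd3e and Itgax at 0 in every group. Summed stromal and endothelial markers (8 genes) were at 1.62 to 6.40 CPM, with Dcn at 0 in every group.

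Dietary vitamin A reaches the intestine as retinyl esters and as carotenoids such as beta-carotene. In enterocytes, the scavenger receptor SCARB1 takes up carotenoids and BCO1 cleaves beta-carotene to retinal. RBP2 (CRBP2) binds retinol and retinal inside the cell, and LRAT esterifies retinol for export in chylomicrons. Retinol dehydrogenases such as RDH7 oxidize retinol to retinal, DHRS3 reduces retinal back to retinol, and RETSAT saturates retinol to a dihydroretinol. ALDH1A1 oxidizes retinal to retinoic acid, the ligand of the nuclear receptors RAR. ISX is an intestinal homeobox protein that retinoic acid induces and that represses Bco1 and Scarb1, which closes a feedback loop on vitamin A uptake.

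Promoter sequence is given for 4 of these genes, because Bco1, Rbp2 and Rdh7 hold AGGTCA, the core sequence of nuclear receptor sites, and Isx was the gene that went the opposite way with IL-22. Each run is the 250 bases before the RefSeq start on GRCm38.p6, 5′ to 3′ on the strand of the gene. Capitals mark letters that match one of the motifs searched, and a position is that of the leftmost letter, counted back from -1 at the last base. The Bco1 window is chr8:117095615-117095864 on the plus strand, Rbp2 is chr9:98490287-98490536 (plus), Rdh7 is chr10:127889248-127889497 (minus) and Isx is chr8:74872924-74873173 (plus).
Bco1: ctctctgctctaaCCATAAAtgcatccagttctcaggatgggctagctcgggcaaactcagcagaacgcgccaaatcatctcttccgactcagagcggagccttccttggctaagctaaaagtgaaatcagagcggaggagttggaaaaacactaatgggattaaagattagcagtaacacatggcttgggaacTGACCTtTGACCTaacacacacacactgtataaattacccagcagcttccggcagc
Rbp2: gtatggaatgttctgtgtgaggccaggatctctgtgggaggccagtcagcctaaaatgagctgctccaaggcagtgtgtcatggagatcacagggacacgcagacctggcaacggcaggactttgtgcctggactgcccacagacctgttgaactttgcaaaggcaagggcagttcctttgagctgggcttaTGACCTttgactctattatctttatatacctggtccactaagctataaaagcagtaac
Rdh7: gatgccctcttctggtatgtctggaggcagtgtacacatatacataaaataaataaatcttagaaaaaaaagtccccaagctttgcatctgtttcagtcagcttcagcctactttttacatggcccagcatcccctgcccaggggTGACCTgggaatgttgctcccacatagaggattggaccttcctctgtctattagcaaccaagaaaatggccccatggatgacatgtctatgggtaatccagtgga
Isx: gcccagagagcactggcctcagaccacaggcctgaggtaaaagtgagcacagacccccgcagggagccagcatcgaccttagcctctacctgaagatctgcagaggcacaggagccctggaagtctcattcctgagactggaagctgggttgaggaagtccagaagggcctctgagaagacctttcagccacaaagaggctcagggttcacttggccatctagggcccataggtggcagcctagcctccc
In Bco1, the letters at -56 hold, on the opposite strand, 2 copies of AGGTCA in the same direction spaced by 1 base, a direct repeat that receptor dimers with RXR bind. Of 32851 mouse promoter windows of that length, 11 (0.0335%) hold this repeat on either strand, among them Bco1 alone of the 7 genes. AGGTCA alone is in 14% of windows (4607). It stood at -56 and -49 in Bco1, where both belong to the repeat, at -58 in Rbp2 and at -105 in Rdh7, each time on the opposite strand. Bco1 also held TTTATGG, a CDX motif found in 2.43% of windows, at -237 on the opposite strand. None of the 7 genes had TTCNNNGAA (a STAT motif, 7.02% of windows), CAAAGTCCA (HNF4, 0.384%) or TAATTA (homeodomain, 4.84%) in these letters. Such a match describes letters and is no measure of binding. RefSeq lists another start of Rdh7, nearer to the GENCODE start, whose window (chr10:127888734-127888983) held none of these motifs. The RefSeq starts of Rbp2 and Rdh7 differ from those of the GENCODE gene models used for the positions below.

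The levels of these genes describe RNA of whole cultures, in which fewer cells of a type and less RNA per cell cannot be told apart. Compared per kb of annotated exon, Rbp2 had the highest mean level of the 7 genes in all 4 groups. In untreated fl/fl organoids it was at 90.6 CPM per kb, followed by Retsat (23.2), Rdh7 (16.1), Dhrs3 (7.31), Aldh1a1 (4.81), Bco1 (3.91) and Isx (1.47). The culture ranges of the first 4 genes did not overlap their next neighbour in this order, apart from Dhrs3 and Aldh1a1. Aldh1a1 and Bco1 overlapped, as did Bco1 and Isx. In IL-22–treated ΔIEC organoids the order was Rbp2 (86.9 CPM per kb), Isx (42.4), Retsat (10.3), Aldh1a1 (4.70), Dhrs3 (2.29), Bco1 (2.26) and Rdh7 (0.843). There Isx was second and Rdh7 last, and the ranges of Rbp2 and Isx overlapped. In IL-22–treated fl/fl organoids Rbp2 (16.2 CPM per kb) and Retsat (13.0) overlapped, Isx followed at 5.5 and Aldh1a1 was last at 0.794. In untreated ΔIEC organoids Rbp2 (171) and Retsat (18.9) stood apart from the rest, and each of the other 5 genes, from Rdh7 (12.7) to Dhrs3 (3.87), overlapped its next neighbour.

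**Figure D1:**
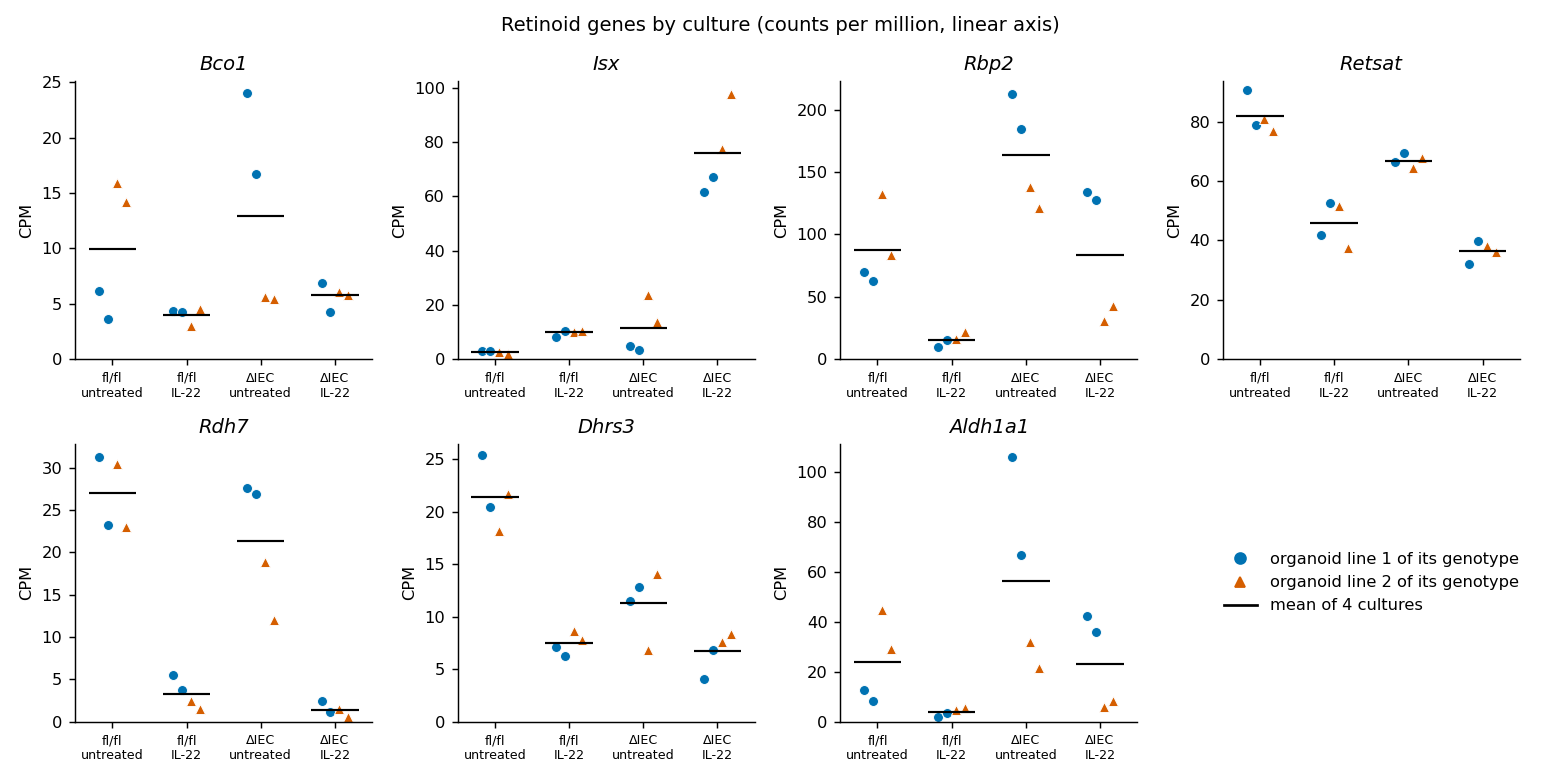
Level of each retinoid gene in every culture, in CPM on a linear axis that starts at 0, by genotype and treatment. Circles are the first and triangles the second organoid line of that genotype, and the line is the mean of 4 cultures. Isx stands at 61.6 to 97.8 CPM in IL-22–treated ΔIEC cultures, above every other culture, while Rdh7 is low in all 8 IL-22–treated cultures.

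Bco1 (ENSMUSG00000031845.15, chromosome 8, 117095854 to 117133720, plus strand) was at 6.14, 3.57, 15.9 and 14.2 CPM in untreated fl/fl cultures and at 4.36, 4.21, 3.00 and 4.49 CPM with IL-22. ΔIEC cultures without IL-22 were at 24.1, 16.7, 5.63 and 5.40 CPM, and those given it were at 6.89, 4.26, 6.04 and 5.79 CPM. High Bco1 was thus found in one line of each genotype, the second of fl/fl and the first of ΔIEC, and only in untreated cultures. All IL-22–treated cultures lay between 3.00 and 6.89 CPM, and the groups overlapped in all comparisons. The log2 fold change with IL-22 was -1.27 (SE 0.49) in fl/fl and -1.28 (SE 0.45) in ΔIEC organoids, and these group values join lines that went different ways. Within lines it was -0.16 (SE 0.39) and -2.04 (SE 0.32) in fl/fl, and -1.92 (SE 0.29) and 0.10 (SE 0.38) in ΔIEC. In edgeR's quasi-likelihood fit, the difference between lines did not pass the threshold of 0.01 in either genotype.

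Isx (ENSMUSG00000031621.9, chromosome 8, 74873173 to 74893506, plus strand), the repressor in the feedback loop, was the member that was higher with IL-22. The untreated fl/fl cultures were at 2.92, 3.06, 2.72 and 1.87 CPM and the IL-22–treated ones at 8.32, 10.5, 10.1 and 10.5 CPM, with no overlap. The ΔIEC cultures lay at 4.72, 3.44, 23.7 and 13.7 CPM untreated and, given IL-22, at 61.6, 67.0, 77.7 and 97.8 CPM. At either treatment, the lowest ΔIEC culture lay above the highest fl/fl culture. The log2 fold change with IL-22 was 1.91 (SE 0.50, 3.75-fold) in fl/fl and 2.91 (SE 0.32, 7.50-fold) in ΔIEC organoids. The fl/fl value passed the threshold of 0.01 with all cultures, and not when any 1 of 7 of the 8 fl/fl cultures was left out (log2 1.75 to 2.00), with treated culture 1 the exception, or when either fl/fl line was (2.24 and 1.67). Between genotypes it was 1.93 (SE 0.51, 3.81-fold) untreated and 2.93 (SE 0.31, 7.62-fold) with IL-22. The high untreated ΔIEC values were those of the second line, while the first line lay just above the highest fl/fl culture.

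Isx and Bco1 stood in opposite order in the untreated ΔIEC lines. The first line had the higher Bco1 (24.1 and 16.7 CPM) and the lower Isx (4.72 and 3.44 CPM). The second line had the lower Bco1 (5.63 and 5.40 CPM) and the higher Isx (23.7 and 13.7 CPM). In fl/fl lines Isx differed little while Bco1 differed several-fold. Over all 16 cultures, the Pearson correlation of their log2 CPM was -0.41, a description over points that share lines and libraries.

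Rbp2 (ENSMUSG00000032454.9, chromosome 9, 98486115 to 98509781, plus strand), the retinol-binding protein of enterocytes, was at 70.1, 62.5, 133 and 83.2 CPM in untreated fl/fl cultures and at 9.5, 15.0, 16.3 and 21.6 CPM with IL-22. Without IL-22 the ΔIEC cultures held 213, 184, 138 and 121 CPM, and IL-22–treated ones held 134, 128, 30.5 and 42.2 CPM. The fl/fl groups did not overlap. The ΔIEC groups did, since the treated first line lay within the range of the untreated second line. The log2 fold change with IL-22 was -2.43 (SE 0.41) in fl/fl and -1.0 (SE 0.34) in ΔIEC organoids. The level in IL-22–treated ΔIEC cultures was 5.20-fold that in IL-22–treated fl/fl cultures (log2 2.38, SE 0.41), without overlap, and 1.93-fold untreated (log2 0.95, SE 0.34), with overlap. Without the first ΔIEC line, the difference with IL-22 was 1.19 and did not pass, and without the second fl/fl line the IL-22 effect in fl/fl (-2.37) did not pass.

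In these ΔIEC cultures, the log2 fold changes of Rbp2 and Isx with IL-22 were unlike in the 2 lines. For Rbp2 it was -0.61 (SE 0.14) in the first and -1.83 (SE 0.17) in the second line, a log2 difference of -1.22 (SE 0.22). For Isx it was 3.97 (SE 0.23) and 2.22 (SE 0.18), a log2 difference of -1.74 (SE 0.33). Both passed the threshold of 0.01 in edgeR's fit over 12559 genes, where 0.111% of all tested genes did (14 genes). This test of lines was added after the cultures' values were seen, for genes chosen with such values in view. With 2 cultures per line and treatment, passing it describes these cultures only. In fl/fl organoids the line difference was -0.14 (SE 0.32) for Rbp2 and 0.54 (SE 0.58) for Isx, and neither passed. The enterocyte markers Sis, Anpep, Fabp1, Apoa1 and Apoa4 also passed it in ΔIEC organoids, with log2 differences between -2.23 and -0.99, and 34.8% of the exon bases of Apoa4 overlap Gm10680. Their part in the result on Rbp2 was not tested.

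**Figure D2:**
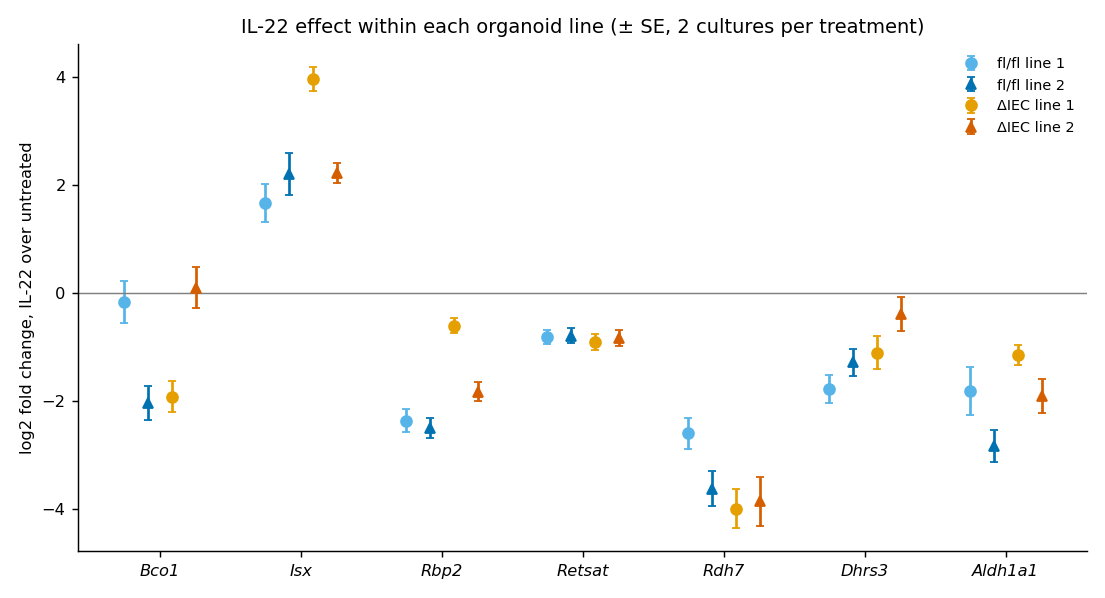
Log2 fold change of each gene with IL-22 within each organoid line (points, ± SE from a fit with 2 cultures per line and treatment). The lines lie close together for Retsat and far apart for Bco1, where 2 of the 4 lines sit near 0, and for Isx and Rbp2 in ΔIEC organoids.

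Retsat (ENSMUSG00000056666.13, chromosome 6, 72598475 to 72608425, plus strand), the retinol saturase, varied least among lines. It was at 90.9, 78.9, 81.1 and 77.0 CPM in untreated fl/fl cultures and at 42.0, 52.6, 51.8 and 37.5 CPM with IL-22. ΔIEC cultures without IL-22 were at 66.5, 69.4, 64.3 and 67.7 CPM, and those given it were at 32, 39.8, 38.1 and 36.2 CPM. Treated and untreated cultures did not overlap in either genotype. On the log2 scale, the change was -0.82 (SE 0.10) in fl/fl and -0.87 (SE 0.11) in ΔIEC organoids, and within single lines it lay between -0.90 and -0.79. Untreated ΔIEC cultures were all below untreated fl/fl cultures (log2 -0.29, SE 0.10). Of the exon bases of Retsat, 18.4% overlap Gm45053 on the opposite strand, and these reads cannot be told apart where counting ignores strand.

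Rdh7 (ENSMUSG00000040134.8, chromosome 10, 127884028 to 127888817, minus strand), a retinol dehydrogenase, had the largest fold changes of the 7 genes with IL-22. It was at 31.3, 23.2, 30.4 and 23.0 CPM in untreated fl/fl cultures and at 5.54, 3.74, 2.44 and 1.5 CPM with IL-22. The ΔIEC cultures lay at 27.6, 26.8, 18.9 and 12 CPM untreated and, given IL-22, at 2.43, 1.14, 1.51 and 0.579 CPM. The lowest untreated culture exceeded the highest treated culture in both genotypes. The fitted log2 fold change was -3.08 (SE 0.30, 8.45-fold lower) in fl/fl and -4.00 (SE 0.37, 16-fold lower) in ΔIEC organoids. The treated ΔIEC values rest on 2 to 6 counts per culture. The genotypes overlapped with and without IL-22. Of the 50-base windows in Rdh7 transcripts, 12.9% occur in other genes too, led by Hsd17b6, Rdh18-ps and Rdh1, so part of its counts could be split with them.

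Dhrs3 (ENSMUSG00000066026.14, chromosome 4, 144892827 to 144928209, plus strand), the retinal reductase, was the gene with a lower level in untreated ΔIEC organoids past the threshold. It was at 25.4, 20.4, 18.1 and 21.7 CPM in untreated fl/fl cultures and at 7.13, 6.31, 8.64 and 7.79 CPM with IL-22. Without IL-22 the ΔIEC cultures held 11.6, 12.8, 6.84 and 14.1 CPM, and IL-22–treated ones held 4.05, 6.82, 7.56 and 8.39 CPM. The fl/fl groups did not overlap and the ΔIEC groups did, through untreated culture 3. Fitted on the log2 scale, the change with IL-22 was -1.51 (SE 0.20) in fl/fl and -0.74 (SE 0.23) in ΔIEC organoids. Untreated ΔIEC organoids were at 1.88-fold lower levels than untreated fl/fl organoids (log2 -0.91, SE 0.19, no overlap), and with IL-22 the genotypes overlapped (log2 -0.14, SE 0.24). The untreated difference did not pass without untreated ΔIEC culture 1 (-0.92) or untreated fl/fl culture 1 (-0.82), nor without either ΔIEC line (-1.05 and -0.80) or the first fl/fl line (-0.81). Where the line was taken into account, by voom with the line as a random effect (-0.92) or by summing the cultures of a line (-0.92), it did not pass either.

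Aldh1a1 (ENSMUSG00000053279.6, chromosome 19, 20492715 to 20643465, plus strand), the retinal dehydrogenase, was at 12.9, 8.17, 44.9 and 29.2 CPM in untreated fl/fl cultures and at 1.98, 3.51, 4.5 and 5.69 CPM with IL-22. ΔIEC cultures without IL-22 were at 106, 66.7, 31.8 and 21.6 CPM, and those given it were at 42.5, 36.1, 6.04 and 8.10 CPM. As for Bco1, the second line was higher in untreated fl/fl and the first in untreated ΔIEC cultures. The fl/fl groups did not overlap, the ΔIEC groups did, and the genotypes did not overlap with IL-22. On the log2 scale, the change with IL-22 was -2.46 (SE 0.73) in fl/fl and -1.38 (SE 0.53) in ΔIEC organoids, and all 4 lines were lower with IL-22, with log2 fold changes from -2.83 to -1.15. With IL-22, ΔIEC cultures were 5.51-fold above fl/fl cultures (log2 2.46, SE 0.73), which did not pass, and without the first ΔIEC line the log2 difference was 0.80.

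Of the 7 genes, 5 passed an adjusted p of 0.01 with IL-22 in fl/fl organoids (Isx higher, and Rbp2, Rdh7, Dhrs3 and Retsat lower), where 20.8% of all tested genes did (10.6% higher and 10.2% lower). In ΔIEC organoids 3 passed (Isx higher, Rdh7 and Retsat lower), against 17.5% of tested genes (9.83% higher and 7.65% lower). With the organoid line as a block, 7 passed in fl/fl, where 30.6% of all tested genes did, and 6 (all but Dhrs3) in ΔIEC organoids, where 25.5% did. With the cultures of a line summed, 3 passed in each genotype (Rdh7 and Retsat in both, Dhrs3 in fl/fl and Isx in ΔIEC). Fewer of all tested genes passed there too, and their numbers are given in the last section. Between genotypes, 1 passed untreated (Dhrs3, lower, against 9.76% of tested genes, 3.78% higher and 5.98% lower) and 2 with IL-22 (Rbp2 and Isx, higher, against 19.8%, 9.91% higher and 9.84% lower). These counts describe genes chosen for such values, and nothing is read from them. Treated and untreated cultures did not overlap for 6 genes in fl/fl and 3 in ΔIEC organoids, and the shares of all tested genes were 30.9% and 27.3%. The genotypes did not overlap for 3 genes untreated and 3 with IL-22, and the shares of all tested genes were 23.3% and 29.6%.

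The difference of the IL-22 effect between genotypes (ΔIEC minus fl/fl) was tested for all genes by edgeR, and 2 of 12559 (0.0159%) passed, 0.00796% in each direction. Of the 7 retinoid genes 0 passed, and DESeq2 also called 0. The difference was 1.43 (SE 0.53) for Rbp2, 1.07 (SE 0.93) for Aldh1a1, 1.00 (SE 0.66) for Isx, 0.78 (SE 0.31) for Dhrs3, -0.92 (SE 0.56) for Rdh7, -0.05 (SE 0.15) for Retsat and -0.01 (SE 0.86) for Bco1 on the log2 scale. With the line as a block, Rbp2 passed (1.36), where 0.446% of all tested genes did, and it did not pass once the cultures of each line were summed. The comparisons share the same cultures, so their values are given side by side.

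Summed enterocyte markers were lower with IL-22. Isx was higher, the other retinoid genes followed here had lower fitted group values, and Bco1 was not lower in every line. The summed level of 18 markers was 5433 to 6266 CPM in untreated fl/fl cultures and 3121 to 3723 CPM with IL-22, and in ΔIEC cultures it was 5096 to 6141 and 2942 to 4064 CPM. With IL-22, 10.2% of all tested genes passed lower and 10.6% higher in fl/fl, and 7.65% and 9.83% in ΔIEC organoids. Of the 18 markers, 11 passed lower and 2 higher in fl/fl organoids, and 9 lower and 2 higher in ΔIEC organoids. Among those lower in both were the glucose transporter Slc2a2 (log2 fold change -2.67, adjusted p = 9.69e-08, and -2.79, adjusted p = 4.50e-07, by edgeR) and lactase, Lct (-4.06 and -4.37). Krt20, a keratin of differentiated epithelium, rose (1.54 and 1.15), as did Ace (1.14 and 1.40). The part of these markers in the levels of the retinoid genes was not tested. In ΔIEC lines with IL-22, the marker sum was 4064 and 3716 CPM in the first and 3033 and 2942 CPM in the second line. Rbp2 and Aldh1a1 had the same order there. In fl/fl lines with IL-22, the sum was 3392 and 3723 CPM in the first and 3121 and 3267 CPM in the second line. There Rbp2 (means of 12.2 and 19.0 CPM) and Aldh1a1 (2.74 and 5.10 CPM) had the opposite order.

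The summed level of 14 enterocyte transcription factors was 2429 to 2545 CPM in untreated fl/fl and 3051 to 3184 CPM in IL-22–treated fl/fl cultures. In ΔIEC cultures it was 2296 to 2424 and 2554 to 2908 CPM. With IL-22, 28.6% of them passed in fl/fl and 42.9% in ΔIEC organoids, against 20.8% and 17.5% of all tested genes. Of 14 tested, 4 were higher with IL-22 in fl/fl organoids (Hnf4a, Klf4, Klf5 and Elf3) and the others did not pass, and in ΔIEC organoids 4 were higher (Klf4, Klf5, Elf3 and Prdm1) and 2 lower (Maf and Gata6). Elf3, an epithelial ETS factor, rose by log2 0.94 (adjusted p = 1.86e-08) in fl/fl and 1.04 (adjusted p = 4.30e-09) in ΔIEC organoids by edgeR. Maf was lower in ΔIEC than in fl/fl organoids, untreated (-1.07, adjusted p = 1.01e-05) and with IL-22 (-1.52, adjusted p = 2.25e-07, edgeR). Cdx1 was higher in ΔIEC organoids, untreated (0.46, adjusted p = 0.00137) and with IL-22 (0.77, adjusted p = 5.47e-06, edgeR). These genotype p-values come from a fit without the line, in which 2 lines per genotype count as 4 cultures per group.

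Other cell type and region markers were read in the same fit. With IL-22, 10.6% of all tested genes passed higher and 10.2% lower in fl/fl, and 9.83% and 7.65% in ΔIEC organoids. Between untreated genotypes, 5.98% of all tested genes passed lower. Stem cell markers summed to 1878 to 2272 CPM in untreated fl/fl and 1036 to 1143 CPM in IL-22–treated fl/fl cultures, and to 2409 to 2663 and 1075 to 1409 CPM in ΔIEC cultures. Of 7 stem markers, 3 fell in fl/fl and 5 in ΔIEC organoids. With IL-22, 1 of 6 Paneth and 1 of 6 enteroendocrine markers rose in each genotype, and 1 of 3 tested tuft markers rose in each. Of 6 goblet markers, 3 rose in fl/fl, and 2 rose and 2 fell in ΔIEC organoids. Between untreated genotypes, 3 of 6 Paneth, 3 of 6 goblet and 2 of 6 enteroendocrine markers were lower in ΔIEC organoids. Of 6 proximal small intestine markers, 2 fell in fl/fl and 1 in ΔIEC organoids with IL-22, and of 4 distal markers tested 2 fell in each. Of 7 epithelial markers, 5 rose in fl/fl organoids and 1 in the ΔIEC genotype. The part of any of these lists in the levels of the 7 retinoid genes was not tested.

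A further 68 genes of vitamin A handling were listed by role with the 7 genes left out, and 35 had enough counts to be tested. Of the other 33, 1 (Pnpla4) had no row under that symbol, 20 had at most 3 counts in every culture and 12 had up to 25 counts. With IL-22, 20 of 35 passed in fl/fl organoids (5 higher, 15 lower) and 19 of 35 in ΔIEC organoids (3 higher, 16 lower). Of all tested genes, 20.8% passed in fl/fl (10.6% higher, 10.2% lower) and 17.5% in ΔIEC organoids (9.83% higher, 7.65% lower). These shares stand beside the counts of the IL-22 effect by role below too. Over the list, the median log2 fold change was -0.23 (fl/fl) and -0.40 (ΔIEC), against -0.05 and -0.01 over all tested genes. For the difference of the IL-22 effect between genotypes, 0 of 35 passed in edgeR and 0 in DESeq2. In edgeR, 4 had an unadjusted p under 0.05, as did 7.26% of all tested genes. With the line as a block, 1 passed (Adh1).

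**Figure D3:**
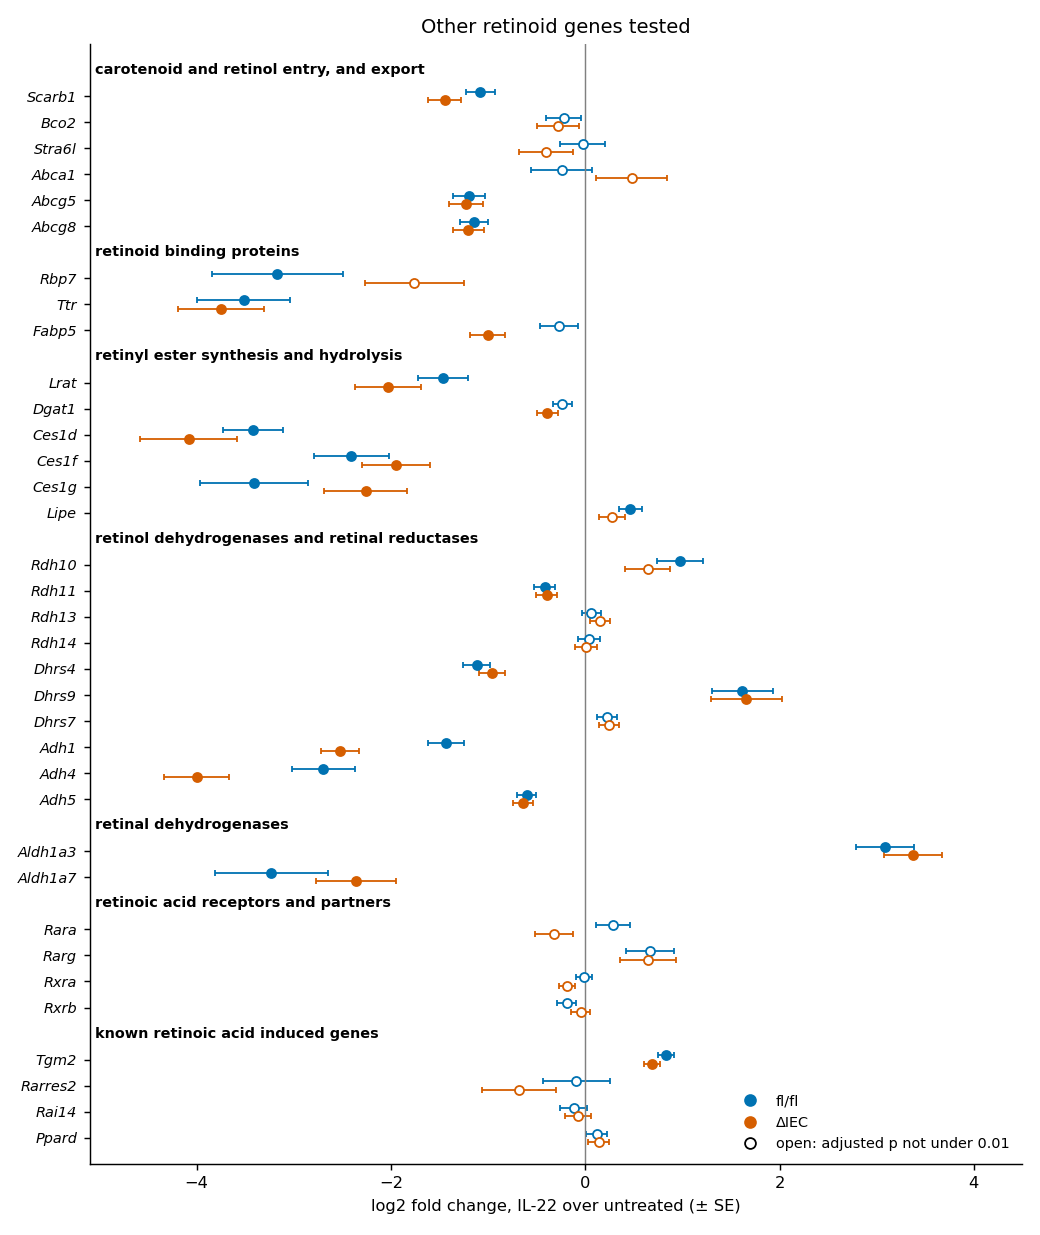
Log2 fold change with IL-22 (± SE) of the 35 other retinoid genes tested, by role, in fl/fl and ΔIEC organoids. Filled points passed an adjusted p of 0.01. Points of the oxidizing alcohol dehydrogenases Adh1 and Adh4 lie left of 0 and those of Aldh1a3, Dhrs9 and Tgm2 right of 0 in both genotypes, and the fitted values of Ttr, and of Rbp7 in fl/fl, are not bounds since those treated groups had at most 3 counts per culture.

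Of 6 uptake and export genes tested, 3 fell with IL-22 in each genotype. Lower in ΔIEC than in fl/fl organoids were 4 untreated and 5 with IL-22, where 5.98% and 9.84% of all tested genes passed lower. Scarb1, the carotenoid receptor that ISX represses, went with IL-22 from 231 ± 8.64 to 109 ± 14.8 CPM in fl/fl organoids (SD, n = 4, as below) and from 126 ± 36.9 to 46.4 ± 7.74 CPM in ΔIEC organoids. Within each genotype the treatments did not overlap, and within each treatment the genotypes did not. The fitted log2 fold change with IL-22 was -1.08 (SE 0.15, adjusted p = 2.07e-05, edgeR) in fl/fl and -1.45 (SE 0.17, adjusted p = 1.72e-06, edgeR) in ΔIEC organoids. Between genotypes it was -0.86 (adjusted p = 0.000663) untreated and -1.23 (adjusted p = 2.56e-05, edgeR) with IL-22. Abcg5 and Abcg8, whose proteins form a sterol exporter, fell in both genotypes by similar amounts (Abcg8 had log2 fold changes of -1.14 and -1.20), and their annotated exons share 82 bases on opposite strands. Bco2, which cleaves carotenoids at another bond than BCO1, did not pass with IL-22 (-0.22, adjusted p = 0.378, and -0.28, adjusted p = 0.381, edgeR). It was lower in ΔIEC organoids, untreated (-1.16, adjusted p = 0.00048) and with IL-22 (-1.22, adjusted p = 0.000186, edgeR). This fit takes no account of the line. With the cultures of a line summed, none of the other retinoid genes passed between genotypes. That limit holds for their genotype values in the paragraphs below too.

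Of 3 binding proteins tested, Ttr, which carries the retinol-binding protein RBP4 in blood, fell in both genotypes. Its mean (± SD, n = 4) went from 4.63 ± 2.10 to 0.368 ± 0.287 CPM in fl/fl and from 7.93 ± 1.70 to 0.569 ± 0.216 CPM in ΔIEC organoids. Treated groups had at most 3 counts per culture, so the fold change is given only as a bound against 3 counts per library, log2 -2.47 and -3.05. Rbp7 fell in fl/fl organoids, with a bound of -1.93. Fabp5 fell in ΔIEC organoids (-1.01, adjusted p = 0.000216, edgeR) and was higher in untreated ΔIEC than fl/fl organoids (1.22, adjusted p = 0.000139, edgeR).

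Genes of retinyl ester synthesis and hydrolysis were lower in 4 of 6 tested in fl/fl and 5 of 6 in ΔIEC organoids. Ces1d, a carboxylesterase that hydrolyses retinyl esters, went from 62.3 ± 16.9 to 5.80 ± 1.56 CPM in fl/fl organoids (log2 -3.42, SE 0.31, adjusted p = 9.85e-08, edgeR). In ΔIEC organoids it went from 18.7 ± 5.70 to 1.27 ± 1.72 CPM (log2 -4.08, SE 0.50, adjusted p = 3.84e-06, edgeR). The treated ΔIEC mean was 2.53 CPM in the first line and 0 CPM in the second, so the size of this fold change is uncertain. Within the first line it was -3.28 (SE 0.35). Lrat fell from 11.6 ± 1.70 to 4.29 ± 1.14 CPM in fl/fl (log2 -1.46, adjusted p = 0.000235, edgeR). In ΔIEC organoids it fell from 6.63 ± 1.57 to 1.66 ± 0.982 CPM (log2 -2.03, adjusted p = 0.000131, edgeR). Lrat, Rbp7, the retinoic acid receptors and the CYP26 genes are named after their values were seen. Lipe, the hormone-sensitive lipase, rose in fl/fl organoids (0.46, adjusted p = 0.00504, edgeR). Of its exon bases, 15.6% overlap 4732471J01Rik on the opposite strand.

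Among 10 tested retinol dehydrogenases and retinal reductases, 5 fell in each genotype, 2 rose in fl/fl and 1 rose in ΔIEC organoids. Adh1, an alcohol dehydrogenase that oxidizes retinol, went from 948 ± 241 to 352 ± 111 CPM in fl/fl (log2 -1.43, adjusted p = 6.79e-06, edgeR) and from 770 ± 37.7 to 134 ± 12.6 CPM in ΔIEC organoids (log2 -2.52, adjusted p = 7.59e-09, edgeR). Adh4 went from 12.8 ± 2.23 to 1.85 ± 0.892 CPM and from 21.6 ± 4.95 to 1.46 ± 1.21 CPM (log2 -2.70 and -4.00). Dhrs4, a retinal reductase, fell in both genotypes (-1.12 and -0.96) and was higher in ΔIEC organoids, untreated (0.64, adjusted p = 0.00217) and with IL-22 (0.80, adjusted p = 0.000343, edgeR). Dhrs9 went the other way with IL-22, from 3.71 ± 1.44 to 11.5 ± 4.10 CPM and from 2.27 ± 0.769 to 7.56 ± 2.65 CPM (log2 1.62 and 1.66). Within the first and second line, its log2 fold change was 0.78 (SE 0.32) and 2.47 (SE 0.33) in fl/fl. In ΔIEC lines it was 0.96 (SE 0.38) and 2.51 (SE 0.44). Rdh10, the retinol dehydrogenase of embryonic retinoic acid synthesis, rose in fl/fl organoids (0.98, SE 0.23, adjusted p = 0.00317, edgeR), while in ΔIEC organoids the value was 0.64 (SE 0.23, adjusted p = 0.0443). Rdh11 fell in both (-0.42 and -0.40), and Rdh13 did not pass (0.06 and 0.15).

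The retinal dehydrogenase genes Aldh1a1 and Aldh1a3 went in opposite directions with IL-22. Aldh1a7 is given as a paralog of Aldh1a1, and activity of its protein on retinal was not tested. Aldh1a3 went from 1.69 ± 0.530 to 14.6 ± 2.42 CPM in fl/fl organoids (log2 3.09, SE 0.30, adjusted p = 1.92e-07, edgeR). In the other genotype it went from 1.51 ± 0.423 to 16.7 ± 5.08 CPM (log2 3.38, SE 0.30, adjusted p = 5.41e-08, edgeR). Aldh1a7, next to Aldh1a1 on chromosome 19, was at 9.76 ± 5.76 and 1.01 ± 0.364 CPM in fl/fl (log2 -3.23, adjusted p = 0.000261, edgeR) and at 21.4 ± 8.97 and 4.39 ± 2.53 CPM in ΔIEC organoids (log2 -2.36, adjusted p = 0.000214, edgeR). Within lines, its log2 fold change was -1.82 (SE 0.45) and -4.34 (SE 0.39) in fl/fl, on 3 to 6 counts per treated culture. In ΔIEC lines it was -2.14 (SE 0.23) and -2.63 (SE 0.34). Per kb of exon, Aldh1a1 exceeded Aldh1a3 in untreated fl/fl (4.81 against 0.366 CPM per kb), and with IL-22 the order was reversed (0.794 against 3.17). In IL-22–treated ΔIEC organoids the lines stood in opposite order, with 7.96 against 2.80 CPM per kb in the first line and 1.43 against 4.44 in the second. Of the 50-base windows of Aldh1a1, 3.06% also occur in Aldh1a7, and 7.49% of those of Aldh1a7 occur in Aldh1a1. Aldh1a2 and Aldh8a1 had no counts.

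**Figure D4:**
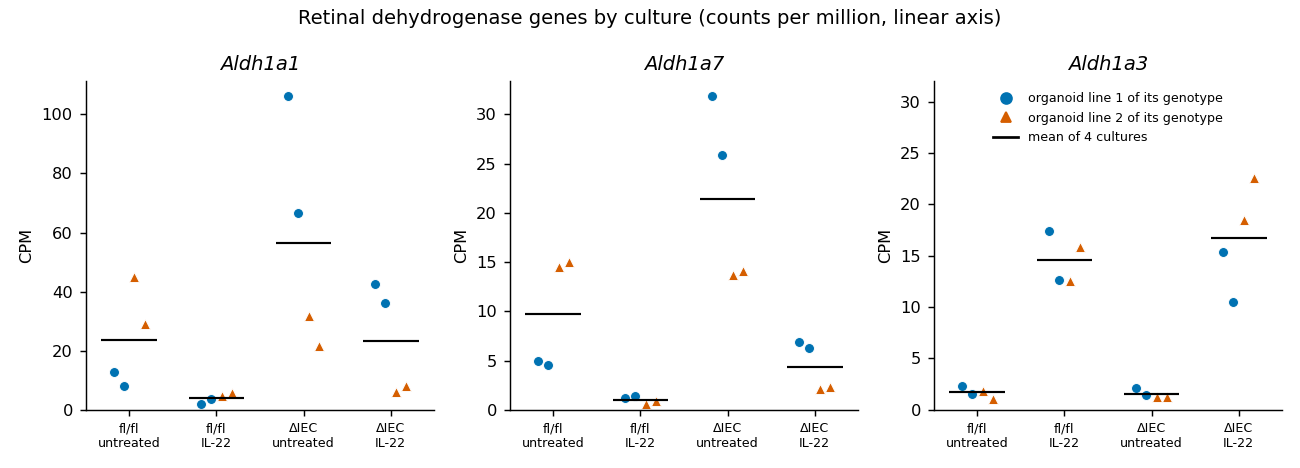
CPM of Aldh1a1, Aldh1a7 and Aldh1a3 in every culture on linear axes from 0, by genotype and treatment. Circles and triangles are the organoid lines and the line is the mean of 4 cultures. Aldh1a3 is at 1.07 to 2.34 CPM in all untreated and at 10.5 to 22.6 CPM in all treated cultures, while Aldh1a1 and Aldh1a7 are lower with IL-22 in every line.

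Receptors of retinoic acid gave few values past the threshold, and genes of the degrading CYP26 enzymes had too few counts to be tested. Rara, Rarg, Rxra and Rxrb had log2 fold changes with IL-22 between -0.19 and 0.67 in fl/fl and between -0.32 and 0.64 in ΔIEC organoids, with adjusted p from 0.0466 to 0.92 in edgeR. Rara was lower in ΔIEC than fl/fl organoids with IL-22 (-0.78, adjusted p = 0.00339, edgeR). Cyp26a1 and Cyp26c1 had at most 1 count in any culture, and Cyp26b1 had at most 9 counts, so a change in these genes was not tested. Of 4 tested genes known to be induced by retinoic acid, Tgm2, a transglutaminase, rose from 114 ± 8.38 to 203 ± 8.82 CPM in fl/fl (log2 0.83, adjusted p = 3.00e-07, edgeR) and from 132 ± 11.9 to 212 ± 18.3 CPM in ΔIEC organoids (log2 0.69, adjusted p = 2.70e-06, edgeR). The other 3 did not pass with IL-22. Of the exon bases of Tgm2, 13.7% overlap Gm20412 and 8.03% overlap Rprd1b, both on the opposite strand. Ppard was lower in ΔIEC organoids, untreated (-0.74, adjusted p = 0.000104) and with IL-22 (-0.72, adjusted p = 5.37e-05, edgeR).

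Between untreated genotypes, 8 of the 35 genes passed (2 higher and 6 lower in ΔIEC organoids), where 9.76% of all tested genes did. With IL-22, 13 passed (1 higher, 12 lower), where 19.8% did. With the cultures of a line summed, which leaves fewer samples, none passed in either comparison. Adh1 did not pass untreated (-0.30, adjusted p = 0.243) and was lower in ΔIEC organoids with IL-22 (-1.39, adjusted p = 2.55e-05, edgeR). For this gene the test of the difference gave -1.09 (SE 0.26, adjusted p = 0.23, edgeR).

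Among the 7 genes themselves, Rbp2 and Aldh1a1 had the most similar pattern across the 16 cultures (Pearson r of log2 CPM 0.961), followed by Rdh7 and Retsat (0.923) and Dhrs3 and Retsat (0.865). Isx ran against Retsat (-0.825), Rdh7 (-0.818) and Dhrs3 (-0.761), and had r of -0.10 with Rbp2. Of all other tested genes, those with the highest r were Akr1c19 (0.970) and Hsph1 (0.967) for Rbp2, Fabp1 (0.968) and Hells (0.952) for Aldh1a1, and Gstm2 (0.971) and Cps1 (0.970) for Rdh7. For Retsat they were Ptms (0.969) and Ccl28 (0.968), for Isx Icam1 (0.964) and Psat1 (0.949), for Dhrs3 Rnf167 (0.926) and Eif3f (0.914), and for Bco1 Olfr1336 (0.839) and Polr3g (0.828). These are descriptions over cultures that share treatment, line and depth, and the values of Bco1 were the lowest of the 7.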

How the data were processed

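RNA-seq libraries of 16 organoid cultures were analysed, from 2 genotypes with and without IL-22. The authors deposited 1 table of read counts per gene, made, per the labels, with cutadapt, TopHat2 and HTSeq on GRCm38 (mm10). The annotation release and the strand setting of the counting are not given in the sources used here, and the labels and the methods name different library kits. Of all reads in the table, 36.3 to 38.3% were on genes, and the rows for reads without a gene (61.7 to 63.7%) were left out. Gene symbols came from GENCODE M21, which matched 49326 of 49585 gene identifiers without version.

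Counts were analysed in R 4.3.3 with edgeR 4.0.16 (TMM scaling, filterByExpr, quasi-likelihood test). One fit of 4 group means gave 5 comparisons, with Benjamini-Hochberg adjustment over 12559 genes and a threshold of 0.01. The SE of a fold change is its size divided by the square root of F. Correlations used log2 CPM with a prior count of 2. The steps were tested on simulated data. No 2 libraries held identical counts.

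The 7 genes and all gene lists were chosen with earlier results of these data known. Named were the 7 genes and Atg16l1, up to 6 other retinoid genes per direction and comparison by smallest p, paralogs of the 7 genes, enterocyte markers and transcription factors (up to 4 per direction), and the 2 genes most like each of the 7. Exceptions are marked where they occur.

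Untreated and treated cultures of the same line deviated together from their group means over genes (r 0.263 to 0.438 in fl/fl and 0.056 to 0.321 in ΔIEC). The line was taken from numbers in the labels. Between different lines r was -0.435 to -0.078. Deviations from a group mean cancel out within the group, so these negative values follow from the positive ones and add nothing to them. Alternatives were DESeq2 1.42.0, RLE scaling, no filter on low counts, the compared groups only, the line as a block, limma 3.58.1 voom with the line as a random effect, cultures of a line summed, a threshold of 0.05, and leaving out each culture or line. Promoter windows and starts came from RefSeq.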

Additional observations from a re-analysis of the deposited data

Results flagged for a closer look

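Of 14 line differences in the IL-22 effect read for the 7 genes, 2 passed an adjusted p of 0.01 in edgeR's fit, both between the ΔIEC organoid lines. The second minus the first line was -1.22 for Rbp2 and -1.74 for Isx on the log2 scale. Rbp2 went from a mean of 199 to 131 CPM in the first line and from 130 to 36.4 CPM in the second. Isx went from 4.08 to 64.3 CPM in the first line and from 18.7 to 87.7 CPM in the second, which had the higher mean at both treatments. The test was added after the values were seen, for genes chosen with such values in view, so passing it describes these cultures only. Enterocyte markers differed between these lines too, 5 of 18, and their part was not tested. Of 28 groups of 4 cultures, 0 had a culture far from the others by Dixon's criterion.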

How the results depend on the processing

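As read from the labels, the counts rest on 2 lines per genotype. Lines are nested in genotype, so line and genotype cannot be told apart and no replicate block could be set for the genotype comparisons. Genes called numbered 2608 for IL-22 in fl/fl, 2195 for IL-22 in ΔIEC, 2 for the difference of these effects, 1226 between untreated genotypes and 2481 between IL-22–treated genotypes. Cultures of a line summed, which leaves fewer samples, gave 543, 635, 0, 10 and 188 genes in that order, and a threshold of 0.05 gave 4057, 3500, 2559 and 4168 outside the difference of effects. With the line as a replicate block the difference of effects gave 56 genes, with DESeq2 5, RLE scaling 1, no filter 80 and voom 5. The untreated genotypes gave 1840 with no filter and 777 with voom.

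Of the 7 genes, IL-22 in fl/fl called 5, and 3 with lines summed. IL-22 in ΔIEC called 3, and 6 with no filter, 6 with the replicate block, 5 with voom and 6 at 0.05, where all genes called rose too (2566, 3198, 2863 and 3500), and 3 (Isx, Rdh7 and Retsat) with lines summed. The difference of effects called 0, and 1 (Rbp2) with no filter or the replicate block, and 0 with lines summed. Between untreated genotypes 1 was called, and 2 with DESeq2, 4 with no filter, 2 with the compared groups only, 0 with voom, 0 with lines summed and 3 at 0.05. With IL-22, 2 were called, and 0 with lines summed and 4 at 0.05. Of the other retinoid genes, lines summed gave 7 (fl/fl), 9 (ΔIEC), 0 (untreated genotypes) and 0 (genotypes with IL-22). The difference of effects called 1, Adh1, with no filter, the replicate block or voom. Untreated genotypes gave 14 with no filter and 15 at 0.05. The replicate block changed no other count of the 7 genes or the other retinoid genes by over 1.5 times.

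Leaving out each culture or line gave, for IL-22 in fl/fl, 1083 to 2796 genes, 3 to 6 of the 7 genes and 13 to 21 other retinoid genes, the lowest each time without the second fl/fl line (1627 genes without the first). For IL-22 in ΔIEC it gave 913 to 2491 genes, 3 to 4 and 13 to 19, with 913 without the second and 1174 without the first ΔIEC line. For the difference of effects it gave 0 to 4 genes, 0 of the 7 and 0 to 1 others. For untreated genotypes it gave 445 to 1639 genes, 0 to 2 and 7 to 10. The 445 was without the first ΔIEC line, and counts moved by over 1.5 times also without the first fl/fl line (535), the second ΔIEC line (688), or cultures 1 or 2 of either untreated group (633 to 779). For genotypes with IL-22 it gave 950 to 2672 genes and 1 to 3 of the 7, both lowest without the first ΔIEC line, and 6 to 13 others, with 6 without the second fl/fl and 8 without the second ΔIEC line. No called value changed sign. The sign of uncalled Bco1 for the difference of effects changed in 13 of 27 settings. The causes of these moves were not tested.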
